A study of Mus musculus with 2 samples.

Results

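Maternally methylated imprint control regions are stretches of CpG-rich DNA that receive methylation in the egg and not in sperm. 13 of them were examined here, each as a fixed window of 3 to 8 kb in the mouse build mm9 named for a gene it controls (Gnas, Peg10, Mest, Nap1l5, Peg3, Snrpn, Kcnq1ot1, Plagl1, Grb10, Zrsr1, Peg13, Airn and Impact). The windows lie in mm9 at chr2:174119001-174127000 (Gnas), chr6:4696001-4700000 (Peg10), chr6:30685001-30689000 (Mest), chr6:58855001-58859000 (Nap1l5), chr7:6679001-6685000 (Peg3) and chr7:67147001-67152000 (Snrpn). The others lie at chr7:150480001-150484000 (Kcnq1ot1), chr10:12809001-12812000 (Plagl1), chr11:11925001-11928000 (Grb10), chr11:22871001-22875000 (Zrsr1), chr15:72636001-72643000 (Peg13), chr17:12934001-12937000 (Airn) and chr18:13130001-13134000 (Impact). In the RefSeq gene table Nap1l5 lies within Herc3, Kcnq1ot1 within Kcnq1, Zrsr1 within Commd1, Peg13 within Trappc9 and Snrpn within Snhg14, and exon or intron positions in mm9 were not used here. CpG methylation came from bisulfite sequencing of a targeted capture library of the hippocampus, a part of the brain that serves memory, in C57BL/6 mice. Of the 2 libraries, 1 came from untreated mice (control). The other came from mice whose drinking water carried arsenic trioxide (ATO) at 5000 ppb, from before their parents mated, through lactation, and on after weaning. The labels do not give age, sex, or whether a library holds 1 animal or a pool, and whether the DNA came from the labelled tissue was not tested, since no expression was measured. Of the 2399 cytosines listed in the windows in either library, 1333 had at least 10 reads in both and were analysed, out of 2312276 in the genome. In what follows, control and ATO stand for the 2 libraries. All 1333 lay on the reverse strand. The methylation level of a cytosine is the percent of C among its C and T calls. With 1 library per group there is no replicate error, so every comparison is between these libraries and not between exposed and unexposed mice.

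After fertilisation, when most of the genome loses its methylation, imprint control regions keep theirs on the maternal copy, helped by the zinc-finger protein ZFP57, which binds a methylated hexamer (TGCCGC). The paternal copy stays unmethylated and its promoters active, so the genes named here are mostly transcribed from the paternal copy alone. In a somatic tissue a mixture of equal numbers of both copies reads 50% methylated. Imprinted genes are known for their part in growth and in brain development. Bisulfite does not separate methylated from hydroxymethylated cytosine, and the tables hold no allele information, so the parental origin of a methylated call was not measured.

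The sequences of 7 promoters inside the windows could be laid on the measured cytosines, because the CpG spacing of each RefSeq promoter (sequence from build GRCm38.p6) matched the deposited mm9 positions in full at 1 place on its chromosome. The margin was smallest for Snrpn, where another place matched 6 of its 7 CpGs. 5 are shown, since they range from the promoter that differed most between the libraries to those that differed little on average. Each runs 5′ to 3′ towards the start site and ends at the base before it, and capitals mark the CpGs that were analysed. The Peg3 sequence is the 163 bases between the divergent Peg3 and Usp29 starts; the others are the 250 bases upstream. In mm9 they lie at chr10:12810388-12810637 (Plagl1, plus strand), chr7:150482453-150482702 (Kcnq1ot1, minus), chr6:58857121-58857370 (Nap1l5, minus), chr7:6683131-6683293 (Peg3, minus) and chr7:67150086-67150335 (Snrpn, minus).
Plagl1: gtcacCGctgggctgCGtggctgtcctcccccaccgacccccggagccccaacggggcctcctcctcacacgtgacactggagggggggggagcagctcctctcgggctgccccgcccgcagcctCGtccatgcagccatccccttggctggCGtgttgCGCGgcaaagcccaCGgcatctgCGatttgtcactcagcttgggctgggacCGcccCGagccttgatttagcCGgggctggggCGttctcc
Kcnq1ot1: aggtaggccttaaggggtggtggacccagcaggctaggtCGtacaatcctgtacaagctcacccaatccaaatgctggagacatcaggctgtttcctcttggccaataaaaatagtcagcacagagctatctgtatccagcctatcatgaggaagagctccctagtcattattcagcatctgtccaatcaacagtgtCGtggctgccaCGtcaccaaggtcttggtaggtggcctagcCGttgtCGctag
Nap1l5: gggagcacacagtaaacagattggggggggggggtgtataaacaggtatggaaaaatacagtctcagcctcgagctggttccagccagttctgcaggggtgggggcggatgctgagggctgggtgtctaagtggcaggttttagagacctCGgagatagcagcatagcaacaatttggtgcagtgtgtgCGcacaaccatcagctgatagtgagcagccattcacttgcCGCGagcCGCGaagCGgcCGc
Peg3: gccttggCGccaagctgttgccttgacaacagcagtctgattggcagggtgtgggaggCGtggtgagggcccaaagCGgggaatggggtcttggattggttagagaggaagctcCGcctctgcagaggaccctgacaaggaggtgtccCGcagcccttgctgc
Snrpn: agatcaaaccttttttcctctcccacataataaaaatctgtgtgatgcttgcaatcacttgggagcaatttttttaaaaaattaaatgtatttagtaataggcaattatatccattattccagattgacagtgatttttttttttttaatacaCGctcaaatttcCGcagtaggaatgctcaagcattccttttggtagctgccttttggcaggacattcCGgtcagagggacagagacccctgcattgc

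In the Plagl1 promoter all 12 analysed CpGs were lower in the ATO library. They read 52.2 to 81.8% in control and 26.3 to 47.1% in ATO, at median coverages of 23.5 and 33 reads. The means were 64.2% and 34.8%. In the Kcnq1ot1 promoter the 5 CpGs differed the other way. They read 35.2 to 48.0% in control and 52.1 to 63.2% in ATO, at median coverages of 56 and 52 reads. How many like runs of CpGs in the genome differ as much was not counted. Nap1l5 had 7 of 8 CpGs lower and 1 higher. The last read 28.1% in control and 55.6% in ATO, while the other 7 read 51.2 to 60.5% and 37.5 to 43.9%. The 5 CpGs between Peg3 and Usp29 averaged 48.3% and 51.7%, and the 3 of Snrpn 49.6% and 43.2%. No CpG in these 5 sequences was called different at the threshold given below. In the promoters not shown, 4 CpGs of Zrsr1 averaged 43.5% and 49.2% and 3 CpGs of Mest, at median coverages of 10 and 13 reads, 49.0% and 30.3%. CpGs a few bases apart are read on the same fragments, so those of a promoter are not independent of each other.

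**Figure D1:**
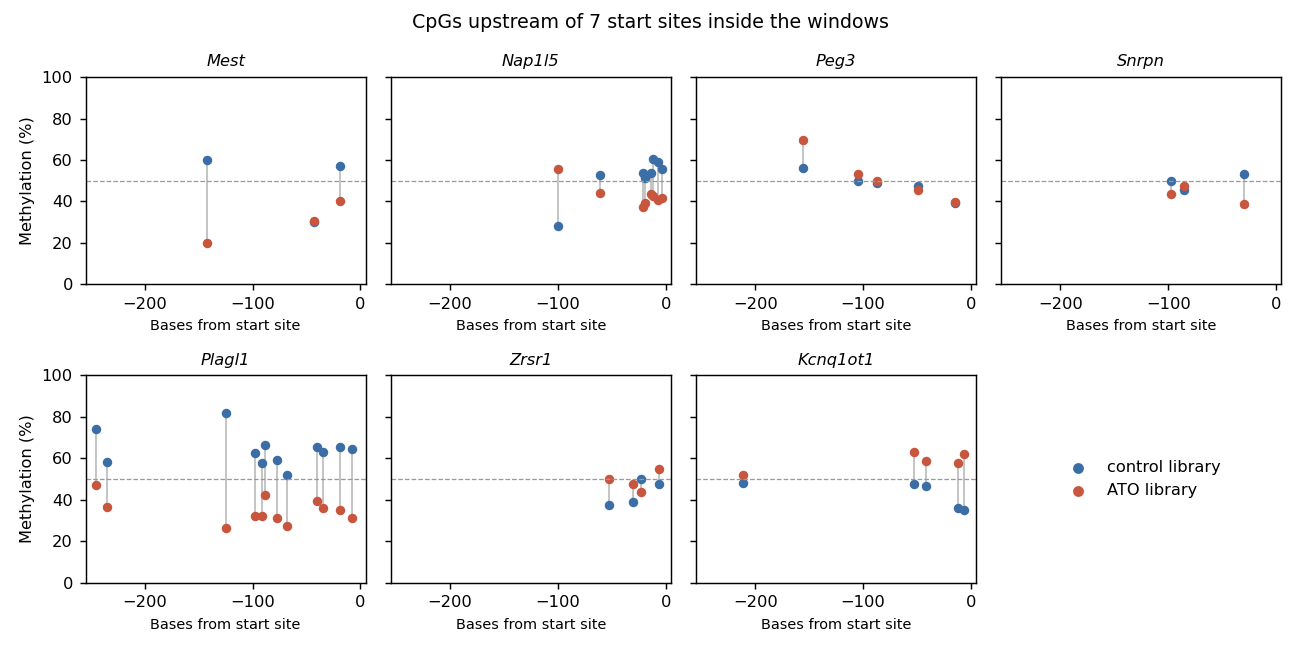
Methylation (vertical axis, percent) of each analysed CpG upstream of 7 start sites inside the windows, against its distance from the start site in bases; blue points are the control library, red points the ATO library, and grey lines join the values of a CpG. The 12 Plagl1 CpGs are all lower and the 5 Kcnq1ot1 CpGs all higher in the ATO library, while the Peg3 and Snrpn CpGs lie between 38.7% and 69.7% with no shared direction.

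The TGCCGC hexamer, searched on both strands in the 250 bases upstream of the start (for Peg3 in the 163 shown), was found in 3 of the 7 promoters (Mest, Nap1l5 and Plagl1) and in 8.68% of the 32851 promoter sequences of that length in the RefSeq table. The hexamer holds a CpG and CpG content was not matched. In Nap1l5 it begins at base 227 of the sequence shown, and its CpG read 53.8% in control and 37.5% in ATO. In Plagl1 its reverse complement, GCGGCA, begins at base 161, and its CpG read 66.7% and 42.4%. The Plagl1 values lay within the range of its other CpGs, and the ATO value in Nap1l5 was the lowest of its 8.

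All 13 windows were near the level of a single methylated copy in both libraries. Window means ran from 41.6% to 55.0% in the control (median 49.0%) and from 42.2% to 55.6% in the ATO library (median 46.8%). Among the 1333 cytosines 84.7% in control and 85.9% in ATO were between 30 and 70%, against 15.6% and 16.4% of all analysed cytosines. Only 8 and 6 were under 10%, a level at which 43.6% and 44.2% of the genome's cytosines lay. The windows were covered by medians of 30 to 80 reads per cytosine in control and 33.5 to 76 in ATO, and the genome by 41 and 44.

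Most windows hold promoters of protein genes expressed from the paternal copy. Peg10, derived from a retrotransposon, shares its promoter region with Sgce; its 143 cytosines averaged 48.6% in control and 52.1% in ATO. Mest, an enzyme-like protein of the growing embryo, had 51.4% and 52.3% over 77 cytosines. Nap1l5, a relative of nucleosome assembly proteins that lies inside Herc3, had 53.1% and 46.8%. Peg3, a zinc-finger transcription factor, had 44.9% and 47.2%. Snrpn, a spliceosome component in the region of Prader-Willi and Angelman syndromes, had 44.3% and 48.6%. Of these 5 windows, 4 were higher in ATO and Nap1l5 was lower. Zrsr1, a splicing-factor relative inside Commd1, was the most deeply covered, with median coverages of 80 and 76 reads, and read 49.0% and 46.8%. Plagl1, a zinc-finger growth regulator, had 55.0% in control and 42.4% in ATO. Impact, a brain protein that dampens the Gcn2 translation response, had 54.8% and 42.7%. Plagl1 and Impact had the largest differences of the 13, both lower in the ATO library. With at least 30 reads required per cytosine they were -6.73 points in Plagl1 and -6.64 in Impact, beside -6.57 in Mest.

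The remaining windows, apart from Grb10, hold starts of noncoding or cluster-controlling transcripts. Kcnq1ot1, the antisense RNA inside Kcnq1 that silences its neighbours on the paternal copy, had 43.6% in control and 44.99% in ATO. Airn, the antisense RNA that silences Igf2r, had 50.8% and 55.6%, from only 44 analysed of 149 listed cytosines. Peg13, a noncoding RNA inside Trappc9 expressed in brain, had 46.5% and 49.9%. The Gnas window, which covers the start of the paternal Gnas transcripts upstream of the gene's common exons, had the lowest control level, 41.6%, and 42.2% in the ATO library over 258 cytosines. Its measured level varied between bins. In the control, bins between 174120501 and 174122000 read 47.1 to 52.7%. The bins at 174125001 and 174125501 read 30.6 and 30.4%, in that order. The last bin, from 174126001, read 53.0%. In ATO these bins read 42.3 to 48.5%, 30.7 and 40.4%, and 42.1%. Grb10, an adaptor that restrains growth from the maternal copy in most tissues and is transcribed from the paternal copy in neurons, had 52.1% and 46.4%.

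**Figure D2:**
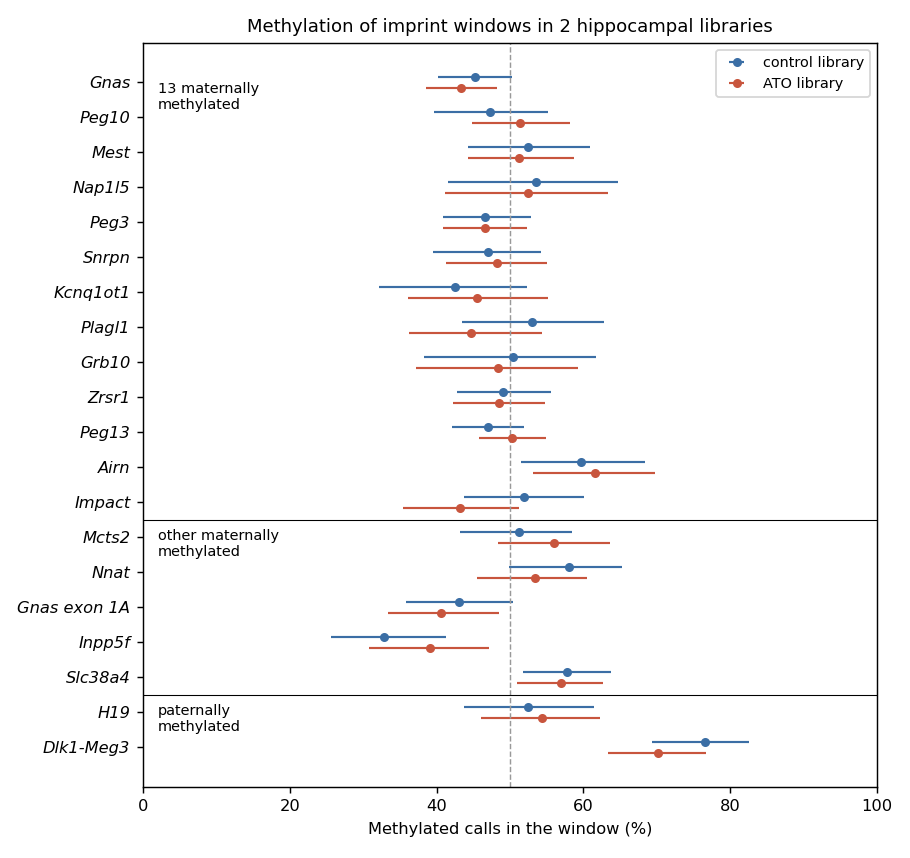
Methylated share of all calls in each window (horizontal axis, percent) in the control library (blue) and the ATO library (red), for the 13 maternally methylated windows, 5 further maternally methylated regions and 2 paternally methylated regions; bars are exact 95% binomial intervals on calls divided for shared fragments. In each of the 20 regions the intervals of the libraries overlap, and the 13 windows lie around 50% apart from Airn, at 59.7% and 61.5% of calls.

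By cytosine means the windows showed no shared direction. Of all 500-bp bins of 30 to 70% in the genome, 62.6% were lower in the ATO library. Outside the imprint regions this share was 48.8% in bins with 30 or more cytosines, so it was not the same at every CpG density. The difference, ATO minus control, was negative in 5 windows and positive in 8, with a median of 0.87 points (SD between windows 6.00). It ran from -12.6 points in Plagl1 and -12.1 in Impact to 4.80 in Airn. When every call rather than every cytosine counted alike, 8 windows were lower, the median was -0.57 points, and the difference was -8.24 points in Plagl1, -8.72 in Impact and -1.02 in Nap1l5, against -6.27 in Nap1l5 by cytosines. With that weighting the sign turned in Gnas, Mest and Peg3. The intervals of the libraries overlapped in 13 of 13 windows. A 95% interval on the difference, by normal approximation on calls divided for shared fragments, ran from -25.4 to 0.18 points in Plagl1 and from -23.0 to -1.13 in Impact, the single window of 13 in which it did not include 0. With every call weighted alike the Impact interval ran from -19.7 to 2.26 points, and all 13 included 0. These intervals cover counting error only and are not adjusted for the 13 windows.

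Within a window, levels were read in 500-bp bins with at least 5 analysed cytosines. Of the 68 such bins in the windows 66 (97.1%) had a level between 30 and 70%, taking the mean of both libraries, against 24.7% of 152175 bins in the genome. Their averages were 47.5% in control and 47.6% in ATO, with 31 lower and 35 higher and a median difference of 0.39 points (SD 10.2). Over all 37614 bins of 30 to 70% the averages were 53.2% and 49.5%, 62.6% were lower, and the median difference was -3.52 points (SD 13.5). Bins were also set against bins of 30 to 70% outside the imprint regions with like numbers of cytosines. With 5 to 9 cytosines the median difference was 4.06 points in the windows (16 bins) and -3.65 outside. With 10 to 19 it was -4.36 points (25 bins) and -3.44. With 20 to 29 it was 7.32 points (11 bins) and -2.48, and with 30 or more -1.04 points (14 bins) and 0.23. The windows thus lay above the genome in 2 of the 4 density classes and below it in the other two. These gaps were not tested. The median size of the difference, whatever its sign, was 6.48 points in the windows and 8.59 outside with 5 to 9 cytosines, and 5.06 and 7.78 with 10 to 19. With 20 to 29 it was 8.19 and 5.84 points, and with 30 or more 5.88 and 5.03, so in dense bins the larger values were in the windows.

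Bins of 1 window often differed in opposite directions. Core bins, those of 30 to 70%, were higher in some places and lower in others in 9 windows, all lower in 3 (Grb10, Zrsr1 and Impact) and all higher in 1 (Airn). The largest difference in Grb10, -21.6 points, came from 8 cytosines at median coverages of 13 and 21.5 reads. With at least 20 reads required per cytosine, the Grb10 window differed by 1.19 points, the other way. In Plagl1 the bin at 12810501 to 12811000, which holds most of the promoter shown, had 54.7% in control and 36.0% in ATO over 49 cytosines. As a share of calls, the exact 95% intervals were 36.3 to 63.7% and 23.9 to 48.2%, and they overlapped. The bin 500 bp before it differed by -23.0 points, while the bin at 12809501 differed by 5.34 points and the bin at 12811001 by -0.98. The Plagl1 difference lay in the 2 middle bins of 4. In Impact the bin at 13132001 had 65.3% and 35.3% over 17 cytosines, at median coverages of 15 and 17 reads, and the 3 other core bins differed by -10.1 to -4.36 points. In Snrpn the bin at 67149001 differed by 25.4 points over 7 cytosines, and the bin at 67150001, which holds the promoter shown, by -6.94. In Zrsr1, the best covered window, the 3 bins differed by -5.30 to -1.26 points.

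**Figure D3:**
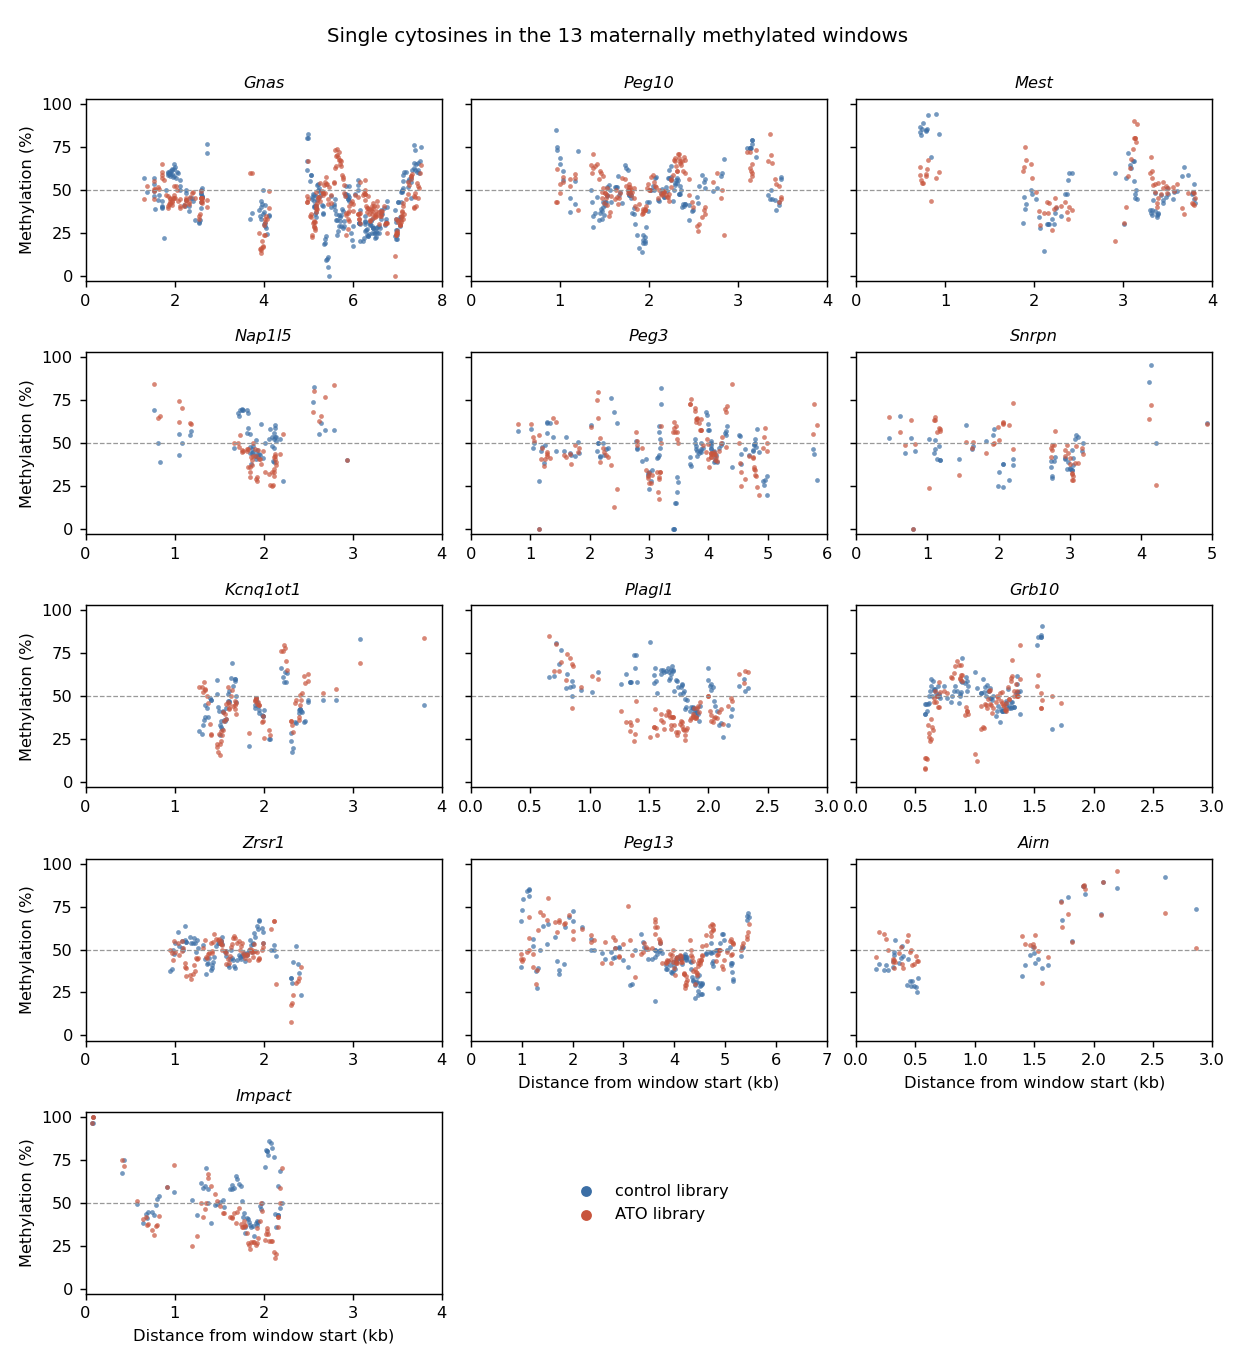
Methylation of every analysed cytosine (vertical axis, percent) against its distance from the start of the window in kb, in 1 panel for each of the 13 windows; blue points are the control library and red points the ATO library. Most points lie between 30 and 70%, and the libraries separate over short stretches such as the middle of Plagl1. The left edge of Impact rises above 80%, as do single points in the right part of Airn. The last Airn bin with at least 5 cytosines read 64.0% in control and 64.5% in ATO.

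Close neighbours differed alike. With the mean difference of each window removed, the correlation over 3920 pairs of cytosines at most 50 bp apart was r = 0.74. Up to 150 bp it was 0.27, and from there to 300 bp it was -0.06. These pairs share fragments and libraries, so the values are descriptions.

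Cytosines within a CpG-dense bin of the windows had similar levels, as in other imprint regions and unlike most dense, partly methylated bins outside them. Of bins with at least 20 analysed cytosines, 955 of 25672 in the genome (3.72%) had a level between 30 and 70%, and 25 of 25 in the windows. In those 25 the SD between cytosines had a median of 10.1 points in control and 9.01 in ATO. In the 917 bins outside the imprint regions the medians were 19.5 and 19.4 points. Coverage was similar, with medians of 40 and 43 reads in the windows and 41 and 46 outside. Were each cytosine read on independent reads, counting would give an SD of 7.79 and 7.35 points in the windows and 7.51 and 7.08 outside. Neighbouring cytosines share fragments, so the SD in a bin can lie below these values. An SD under 12 points in both libraries, a limit chosen after the values were seen, was met by 16 of the 25 bins (64.0%) and by 27 of 917 outside (2.94%). The 16 came from 11 windows. This limit was also met by 6 of 11 other maternal bins and 2 of 2 paternal bins. Snrpn had no bin with 20 cytosines, and the 1 such bin of Mest had SDs of 11.1 and 15.3 points. Together the 13 windows, 5 further maternal regions and the paternal regions held 24 of the 51 such bins in the genome (47.1%). The remaining 27 were not matched to genes here.

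**Figure D4:**
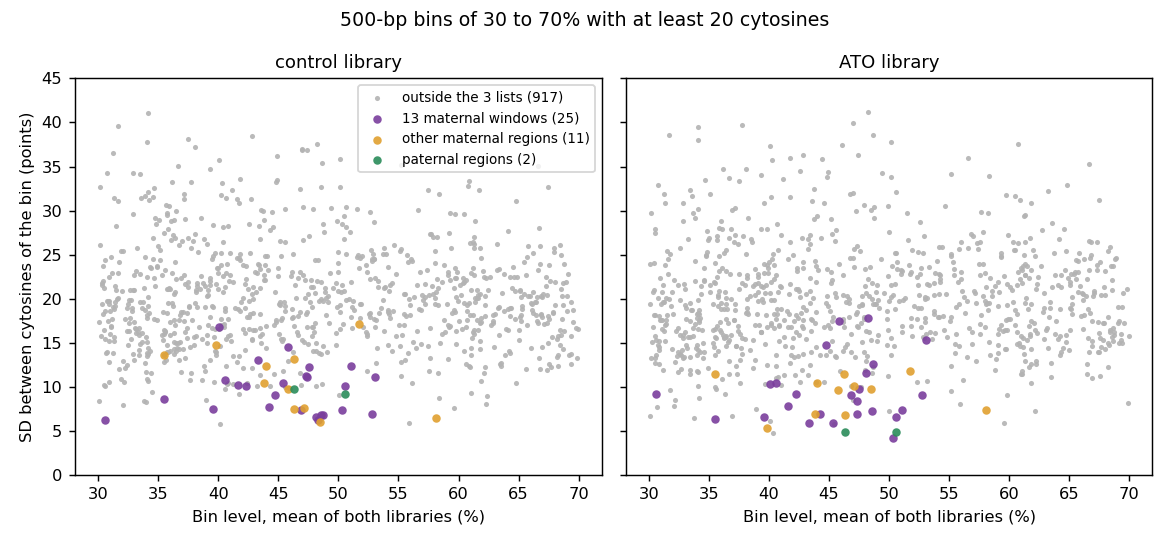
SD between the cytosines of a bin (vertical axis, percentage points) against the bin's level (horizontal axis, percent, mean of both libraries), for all 500-bp bins of 30 to 70% with at least 20 cytosines, in the control library (left) and the ATO library (right). The 25 bins of the 13 windows (purple), with the 11 of other maternal (orange) and 2 of paternal (green) regions, lie near the lower edge of the 917 bins outside the imprint regions (grey), whose median is 19.5 points in the control.

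For single cytosines and for bins the test was Fisher's exact test, two-sided, with Benjamini-Hochberg adjustment over the whole genome. Calls needed an adjusted p below 0.05 and, for cytosines, 25 points or more between the libraries. In the windows 29 of 1333 cytosines (2.18%) were called, against a background of 2.65% of all analysed cytosines. They were 14 lower (background 1.73%) and 15 higher (background 0.916%) in the ATO library and lay in 8 windows: 8 in Gnas, 7 in Mest, 6 in Peg3, 2 each in Nap1l5, Kcnq1ot1 and Impact, and 1 each in Plagl1 and Peg13. Peg10, Snrpn, Grb10, Zrsr1 and Airn had none. A bin, whose calls were first divided by the largest number of cytosines in any 300 bp because they share fragments, was called at a difference of at least 20 points. None of the 68 bins was called by Fisher's exact test, against a background of 1.68% of all bins (1.09% lower, 0.587% higher) and 5.34% of bins between 30 and 70% (3.48% lower, 1.87% higher). The division takes most from CpG-dense bins. Outside the imprint regions 2.27% of bins of 30 to 70% with 20 to 29 cytosines were called and 0.334% of those with 30 or more. With all calls counted undivided, 6 of the 68 bins (8.82%) were called, against 4.77% of all bins. The undivided share among bins of 30 to 70%, the level of most bins in the windows, was not computed. At an unadjusted p under 0.05 on divided calls, 2 of the 68 (2.94%) differed, against 7.95% of all bins and 20.4% of bins of 30 to 70%. These shares were not matched for the number of cytosines, and bins in the windows were denser than most bins of 30 to 70%. These tests compare 2 libraries.

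Among cytosines of 30 to 70% a smaller share was called in the windows than outside at each depth. The background of such cytosines was 11.2% called (7.41% lower, 3.82% higher), and in the windows 22 of 1224 (1.80%) were. Where the less covered library had 10 to 19 reads, 2 of 174 were called in the windows and 3.98% outside the imprint regions. At 20 to 39 reads it was 9 of 443 and 7.97%, at 40 to 79 reads 9 of 441 and 14.9%, and at 80 reads or more 2 of 166 and 15.5%. Cytosines were also sorted by the number analysed in their 500-bp bin. With 1 to 4 in the bin, 4 of 35 (11.4%) were called in the windows and 10.8% outside. With 5 to 9 it was 1 of 106 and 12.498%, and with 10 to 19 it was 7 of 324 and 11.6%. With 20 to 29 it was 1 of 244 and 6.56%, and with 30 or more 9 of 515 (1.75%) and 3.86%. In bins with at least 20 cytosines the gap by depth was smaller. At 10 to 19 reads 0 of 85 were called in the windows and 2.72% outside, and at 20 to 39 reads 5 of 297 and 5.11%. At 40 to 79 reads it was 5 of 270 and 7.44%, and at 80 reads or more 0 of 107 and 5.13%. The excess of differences over counting error, not matched for density, given as the mean squared standardised difference, which is near 1 under counting error alone, was 2.16 in the windows and 4.71 outside. Neighbouring cytosines are not independent and these rates were not tested.

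**Figure D5:**
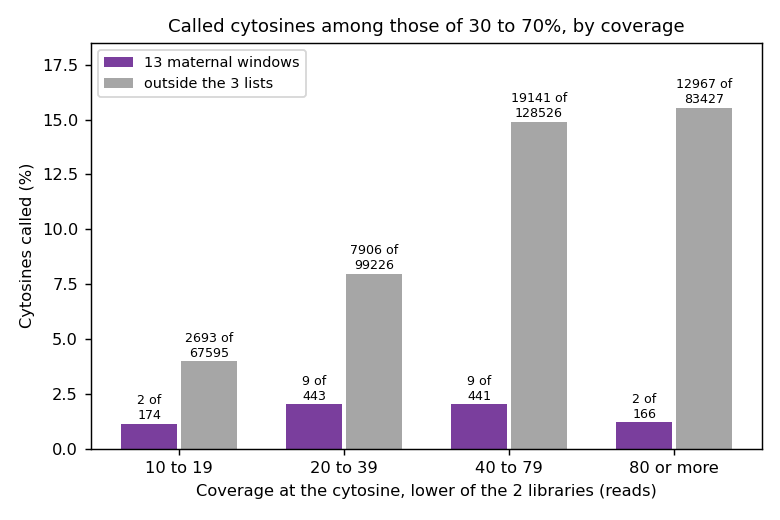
Percent of cytosines called different between the libraries (vertical axis) among those with a level of 30 to 70%, by the lower of the 2 coverages (horizontal axis, reads); purple bars are the 13 windows, grey bars the genome outside the imprint regions, and the numbers give called and tested cytosines. In the windows the share stays between 1.15% and 2.04%, while outside it goes from 3.98% to 15.5%. The bars are not matched for CpG density. In bins with at least 20 cytosines the share outside lay between 2.72% and 7.44%, and in the windows between 0% and 1.85%.

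Some called cytosines lay close together and others stood alone. In Mest all 7 were lower and lay between 30685744 and 30685902, in a bin of 12 cytosines that read 85.1% in control and 57.7% in ATO (Fisher's exact test, adjusted p = 0.15). The largest difference was at 30685902, with 31 of 33 reads methylated in control and 34 of 60 in ATO. This bin and the first of Impact, at 87.1% and 88.5%, were the only bins of the windows outside 30 to 70%. Coverage in the Mest bin differed, with medians of 36 and 84.5 reads, and the part of this in the result was not tested. In Gnas 7 of 8 were higher and lay between 174124410 and 174124723. The bin at 174124501, which holds 5 of them, read 37.1% and 52.4%. The largest difference in Gnas was at 174124410, with 2 methylated of 22 reads in control and 23 of 40 in ATO. In Peg3 a pair of cytosines at 6682428 and 6682430 had 0 of 11 reads methylated in control, which allows up to 27.3%, and 10 of 17 and 10 of 16 in ATO. A cytosine at 6681416 differed the other way, with 15 of 22 and 4 of 31. The lowest adjusted p (2.5e-06, Fisher's exact test) was at a lone cytosine of the Kcnq1ot1 window, 150483797, with 38 of 85 reads methylated in control and 96 of 114 in ATO. It lies above the core of that window, which ends at 150482500. In Plagl1 the called cytosine, 12810373, lies 15 bases before the sequence shown and read 74.1% and 24.1%. In Impact 13132065 read 85.7% and 27.8%, in Peg13 72639082 had 22 of 55 and 55 of 73 reads methylated, and in Nap1l5 58855835 read 38.9% and 66.1%.

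Other imprint regions measured in the same way gave similar levels, apart from Dlk1-Meg3, which read higher, and Rasgrf1, which had no data. Of 5 further maternally methylated regions, Mcts2 had 49.0% in control and 54.1% in ATO, Nnat 56.5% and 50.8%, Inpp5f 41.5% and 47.9%, Slc38a4 54.9% and 54.6%, and the exon 1A promoter of Gnas 41.0% and 38.5%. 3 were lower and 2 higher, and 2 of their 547 cytosines were called, with no called bin among 28. Of the paternally methylated regions, H19 had 51.8% and 51.3%. The window of the Dlk1-Meg3 region held DNA above 90% beside partly methylated DNA and averaged 72.8% and 64.1%; its bin with the most cytosines, 25, read 54.7% and 37.9%. Rasgrf1 had 0 analysed of 16 listed cytosines. None of the 142 paternal cytosines was called. The positions of these 8 regions were set from knowledge of mm9 and not from an annotation.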

How the data were processed

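The 13 windows, the 2 further lists and the tests were chosen with earlier results of these data known. Reads were handled with bcl2fastq, Bowtie2 and Bismark 0.19.0 on mm9, per the submitters' processing notes, which as used here give no trimming or duplicate removal. Per the file headers, the authors deposited, for each cytosine, its coverage as a raw read count, and the percent of C and of T in it. Multiplying coverage by the C percent gave whole methylated counts at 100% of cytosines. The libraries held 135987272 (control) and 147924810 (ATO) calls, of which 92.7% were on the reverse strand in each. Cytosines with at least 10 reads in both libraries were analysed. Tests (Fisher's exact test, Benjamini-Hochberg) ran over the whole genome in Python 3.11.15 with numba 0.67.0 and SciPy 1.17.1. They were also run on simulated counts drawn independently at each cytosine. Those counts have no shared fragments, so that run does not cover the dependence between neighbours in these data. Without known duplicate removal reads may not be independent molecules, so intervals and tests cover counting error only. For intervals, the calls of a window or bin were divided by its largest number of cytosines in any 300 bp. All 13 windows are described. The rule for naming items in a window allowed the partly methylated bin with most cytosines, core edges, called bins and the called cytosine with the largest difference. Only some of these are named, and the choice among them, and other named bins and cytosines, were made after their values were seen. Alternatives are given in the closing section. No strand comparison was made, since no forward cytosine of the windows was analysed. RefSeq promoters with at least 5 CpGs were matched to the tables by CpG spacing, and a match needed every CpG listed and no other cytosine listed in the span; 7 of the 13 windows gained one. Peg10, Peg13 and Impact had no promoter sequence to match, and that of Airn had fewer than 5 CpGs. For Gnas and Grb10 the full matches lay outside their windows.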

Additional observations from a re-analysis of the deposited data

How the results depend on the processing

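The 13 window differences were recomputed under 5 alternatives that could change them. Of the values so obtained 59 moved at all. These 59 stayed within the counting interval of the main value, and 10 of them changed sign, in Gnas, Mest, Peg3 and Grb10. The alternatives reuse the same reads and the intervals are wide, so staying inside does not show that a value is stable. With at least 30 reads per cytosine Grb10 went from -5.73 to 2.08 points. Windows lower in the ATO library rose from 5 to 8 with each call weighted alike, and windows whose interval of the difference left out 0 went from 1 to 0 (chosen after seeing the data). The 29 called cytosines became 11 at an adjusted p under 0.01 and 0 after division of the counts by 2.78, the dispersion of paired strands; there 0.083% of all cytosines were called. The count of called bins went from 0 to 6 (8.82%; 4 lower, 2 higher) with all calls counted, under which 4.77% of all bins were called; here fragments are counted repeatedly. It stayed at 0 under 6 other alternatives. Using the reverse strand alone could change nothing in the windows, where no forward cytosine was analysed. The median difference of core bins lay between -0.97 points (core of 40 to 60%) and 1.14 points (smaller bins), with -3.72 and -3.68 points in the genome. Chosen after seeing the data, uniform dense bins in the windows numbered 8 of 21 in the genome at an SD under 10 points, 21 of 127 under 15, 20 of 121 with at least 15 cytosines and 9 of 20 with at least 30. For these values the cause was not tested. Depth limits the windows to 76 to 475 divided calls each. No paired analysis was possible because each group has 1 library.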

Other observations

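A pair of cytosines read 0% in both libraries while their neighbours were partly methylated. In the Peg3 window the cytosine at 6680146 on chromosome 7 had 0 methylated of 23 reads over both libraries, which allows a share of up to 13.04%. The 14 analysed cytosines within 300 bp averaged 50.3% (control) and 48.9% (ATO). In the Snrpn window the cytosine at 67147795 had 0 of 33 reads, which allows up to 9.09%, beside 5 neighbours at 52.2% and 48.4%. At the lower edge of the Impact window 3 cytosines between 13130072 and 13130087 on chromosome 18 read 96.3 to 100% in control and 96.2 to 100% in ATO, and the next bin, at 13130501, read 47.9% and 43.5%.

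Some regions outside the 13 windows also showed edges, towards nearly unmethylated DNA in Inpp5f and towards highly methylated DNA in Slc38a4. In the Inpp5f region the bin at 135833001 on chromosome 7 read 38.0% (control) and 45.1% (ATO), and the adjoining bin at 135833501 read 3.85% and 4.64%. In the Slc38a4 region the bin at 96884001 on chromosome 15 read 87.1% and 86.3%, beside 48.6% and 52.7% in the adjoining bin.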
